A study of Mus musculus with 2 samples.

Results

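Klf2 (ENSMUSG00000055148), Klf4 (ENSMUSG00000003032) and Klf5 (ENSMUSG00000005148) are the Krüppel-like transcription factors tied to naive pluripotency in the mouse. They were taken by their symbols, 3 of the 33696 genes of the deposited count matrix, and their transcripts were counted in every called cell in which 1000 or more genes were found and mitochondrial genes took no more than 10% of the UMIs. A UMI is a molecular tag that marks 1 captured RNA molecule. The matrix held 14 other Klf genes, which are described for comparison.

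Krüppel-like factors bind GC-rich and CACCC-type DNA through zinc fingers at the end of the protein, and Klf2, Klf4 and Klf5 occupy many of the same sites as Nanog, Esrrb and their partners in mouse embryonic stem cells. In those cells the cytokine LIF raises Klf4 through STAT3, whereas Klf2 protein is lost when the MEK and ERK pathway is active. Forced expression of Klf4 or Klf2 can return primed epiblast stem cells to the naive state, and Klf5 is also known from trophectoderm and from epithelia.

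The study profiled RNA in droplets from single cells of a mouse line named Delmix, in 2 samples, 1 per group, each aimed at 10000 cells. The groups were embryoid bodies taken on day 2, which are aggregates of differentiating cells made from the stem cells, and untreated epiblast stem cells, a pluripotent culture in the primed state. The deposited counts form 1 matrix with no map of its cells to these samples. Neither tag name in it is found among the sample labels. No value below can therefore be given to embryoid bodies or to epiblast stem cells, and the groups were not compared. Clusters of cells were compared instead as a description, with exact Poisson or binomial 95% intervals that cover counting error only and with no test.

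Of 21593 called cells 16841 were kept (78.0%), with 121114764 UMIs in all. The median kept cell had 6473 UMIs in 2682 genes. The total per kept cell ranged between 1265 and 34748 UMIs. Clustering that left out every Klf gene gave 11 clusters. Of these, 9 took a name from marker lists without Klf genes, and 9 had at least 100 cells. The largest, cluster 1, held 4580 cells (27.2% of the kept cells). It is called naive pluripotency-like, since 13 of 15 naive markers stood at least 2-fold higher in it than in the other kept cells and naive markers led its top genes. That lead was narrow. Its top 10 genes held 4 naive markers, against 3 of the germ list, with Dppa3 on both lists. The other large named clusters were primed epiblast-like (4093 cells), caudal and neural-like (1732), epithelial-like (938), primitive streak and mesoderm-like (661), fibroblast-like (593) and two-cell-like (190), the last for its Zscan4 genes. The primed epiblast-like name had the smallest share of raised markers behind it, 4 of 14 by the naming rule. The gaps to primed epiblast-like cells given below rest on that name. Raised markers were 8 of 10 for caudal and neural-like, 8 of 8 for epithelial-like and 12 of 16 for primitive streak and mesoderm-like cells. They were 11 of 11 for fibroblast-like and 8 of 8 for two-cell-like cells. Macrophage-like (81 cells) and neuron-like (30 cells) clusters were small. Clusters 3 (3227 cells, led by Anks1b, Ptprt and Hs3st4) and 6 (716 cells, led by Abcc4, Klf12 and Bnc2) stayed unnamed. Cluster 6 was shallow, at a median of 2735 UMIs, with 8.06% mitochondrial UMIs. Doublet calls took 2145 kept cells (12.7%) and were uneven, at 8.93% of the naive-like and 22.4% of the fibroblast-like cells.

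The zinc fingers bind DNA and are the part that defines the family, so their coding sequence is shown for each gene. Each of the following runs gives the 243 coding bases of the 3 fingers of 1 gene, 5′ to 3′, with the 12 codons of the cysteines and histidines that hold zinc in capitals. They were read from GENCODE M21 transcripts of the GRCm38 genome.
Klf2: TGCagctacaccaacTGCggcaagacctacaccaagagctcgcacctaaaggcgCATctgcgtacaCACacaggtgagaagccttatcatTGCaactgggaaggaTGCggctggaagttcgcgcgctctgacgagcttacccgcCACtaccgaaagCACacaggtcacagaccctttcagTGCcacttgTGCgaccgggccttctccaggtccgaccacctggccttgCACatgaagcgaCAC
Klf4: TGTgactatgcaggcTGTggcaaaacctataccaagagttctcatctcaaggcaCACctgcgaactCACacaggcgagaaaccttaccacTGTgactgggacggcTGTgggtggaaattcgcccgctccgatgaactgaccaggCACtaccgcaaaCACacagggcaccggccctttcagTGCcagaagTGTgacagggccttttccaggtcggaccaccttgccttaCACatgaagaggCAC
Klf5: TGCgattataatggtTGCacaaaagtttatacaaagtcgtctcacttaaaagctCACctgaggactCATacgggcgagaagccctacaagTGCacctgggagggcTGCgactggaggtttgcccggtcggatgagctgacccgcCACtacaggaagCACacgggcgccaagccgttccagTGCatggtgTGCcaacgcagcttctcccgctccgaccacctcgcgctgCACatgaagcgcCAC
Klf2 and Klf4 shared 190 of these 243 bases (78.2%). Klf2 and Klf5 shared 171 (70.4%), and Klf4 and Klf5 shared 166 (68.3%). The genes lie on chromosomes 8, 4 and 14 in the order of the runs, and span 2624 bases (Klf2), 5324 bases (Klf4) and 16346 bases (Klf5) of that annotation. Their longest open reading frames held 354 codons (Klf2), 483 codons (Klf4) and 446 codons (Klf5).

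Promoters are shown for the genes whose levels are described together below. The RefSeq table (GRCm38.p6) gave the window from 250 bases before to 50 bases after the start for Klf2, at chr8:72318812-72319111 on the plus strand, and for Klf4, at chr4:55532426-55532725 on the minus strand. Klf5 is named only. Capitals mark GGGCGG, the GC box, on either strand.
Klf2 promoter: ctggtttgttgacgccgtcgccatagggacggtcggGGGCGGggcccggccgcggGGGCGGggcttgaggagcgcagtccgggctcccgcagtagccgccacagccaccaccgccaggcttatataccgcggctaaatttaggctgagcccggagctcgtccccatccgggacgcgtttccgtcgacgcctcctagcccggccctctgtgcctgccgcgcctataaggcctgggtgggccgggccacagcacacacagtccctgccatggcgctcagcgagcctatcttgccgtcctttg
Klf4 promoter: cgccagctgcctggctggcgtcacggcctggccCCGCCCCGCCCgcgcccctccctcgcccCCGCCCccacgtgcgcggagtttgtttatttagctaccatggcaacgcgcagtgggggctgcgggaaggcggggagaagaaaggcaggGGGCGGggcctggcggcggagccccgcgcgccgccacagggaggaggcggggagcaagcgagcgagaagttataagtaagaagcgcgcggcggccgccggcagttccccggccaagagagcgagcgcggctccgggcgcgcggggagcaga
GGGCGG occurred 2 times in the Klf2 window and 4 times in the Klf4 window, where 2 of the matches shared 1 base. Of the 32851 promoter windows of the table, 35.7% held a GC box. CACCC, searched on both strands as the core of the KLF box, occurred 1 time in the Klf2 window, apart from the GC boxes, and 0 times in the Klf4 window, and 57.5% of all windows held it. A match describes letters and is not a binding site.

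All 3 genes stood higher in the naive-like cells than in the other kept cells. Each value below is a level in CPM, the UMIs of the gene summed over a group of cells and scaled to the same total for every group. Klf2 stood at 869 CPM (859 to 879) in naive-like cells, against 197 CPM in the other cells, a log2 ratio of 2.13 (2.11 to 2.16) with 1 CPM added to both sides. Klf4 stood at 41.7 CPM (39.5 to 43.9) in naive-like cells, against 11.9 CPM in the other cells, a log2 ratio of 1.72 (1.61 to 1.84). Klf5 stood at 163 CPM (159 to 168) in naive-like cells, against 78.4 CPM in the other cells, a log2 ratio of 1.05 (0.997 to 1.10). Among 7027 genes with at least 20 CPM on either side, Klf2 ranked 22nd, Klf4 46th and Klf5 165th by this ratio, and the median gene stood at -0.06. All 3 passed a 2-fold difference, which 2.48% of those genes did, and the interval of Klf5 reached just under it.

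The other cells were a mixture, and the gap to them changed with its makeup. With called doublets left out, the log2 ratios were 2.48 for Klf2, 1.97 for Klf4 and 1.17 for Klf5. With fibroblast-like, macrophage-like and neuron-like cells taken out of the other cells, a choice made after the data were seen, the log2 ratio of Klf4 was 2.30, above the 2.13 of Klf2 under the same choice. Where naive-like cells were instead all cells with at least 3 naive marker UMIs after thinning to 2000 UMIs, which took 11237 cells, the log2 ratio of Klf4 was 0.75, that of Klf2 2.67 and that of Klf5 1.14. Most UMIs of that marker list came from Dppa5a, with 5045 of 7468 summed CPM in naive-like cells. The order of the 3 ratios thus depended on which cells were set against each other.

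Markers of the germ line moved with the same cluster. Of 9 germ markers, 7 stood at least 2-fold higher in naive-like cells, and Dppa3 is on both lists. Of the 7027 genes that reached 20 CPM on either side, 2.48% stood as much higher. The summed level of the germ list was 731 CPM in naive-like cells and lay between 114 and 637 CPM in the other large clusters. The part of germ marker expression in the Klf levels was not tested. At a finer clustering resolution, a step added after the data were seen, 3 naive-like subgroups held 4670 cells. In the largest, 2225 cells with Rhox6 at 7.40 CPM, Klf2 stood at 792 CPM, Klf4 at 48.7 CPM and Klf5 at 185 CPM. In the subgroup led by Trh, Nupr1 and Isg15, 1494 cells with Rhox6 at 8.09 CPM, Klf2 stood at 978 CPM, Klf4 at 33.4 CPM and Klf5 at 152 CPM. In the subgroup led by Rhox6, Rhox9 and H19, 951 cells with Rhox6 at 285 CPM and Dppa3 at 396 CPM, Klf2 stood at 879 CPM, Klf4 at 28.9 CPM and Klf5 at 109 CPM. In the kept cells outside the naive-like cluster Rhox6 stood at 8.27 CPM when pooled, a level that neither the largest nor the Trh-led subgroup exceeded. Among the large clusters of that pool Rhox6 ranged from 3.51 CPM in primed epiblast-like to 36.8 CPM in epithelial-like cells. Dppa3 stood at 150 CPM in the largest and 213 CPM in the Trh-led subgroup, against 46.1 CPM outside the cluster. Klf5 was lower in the Rhox6-led subgroup than in either of the others, with intervals apart. Klf4 was lower there than in the largest subgroup (25.1 to 33.2 against 45.6 to 52.0 CPM), while its interval overlapped that of the Trh-led subgroup (29.7 to 37.5 CPM). Klf2 was highest in the Trh-led subgroup, and the 3 subgroups differed in depth, at medians of 6553 UMIs (Rhox6-led), 5527 UMIs (Trh-led) and 7981 UMIs (largest).

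**Figure D1:**
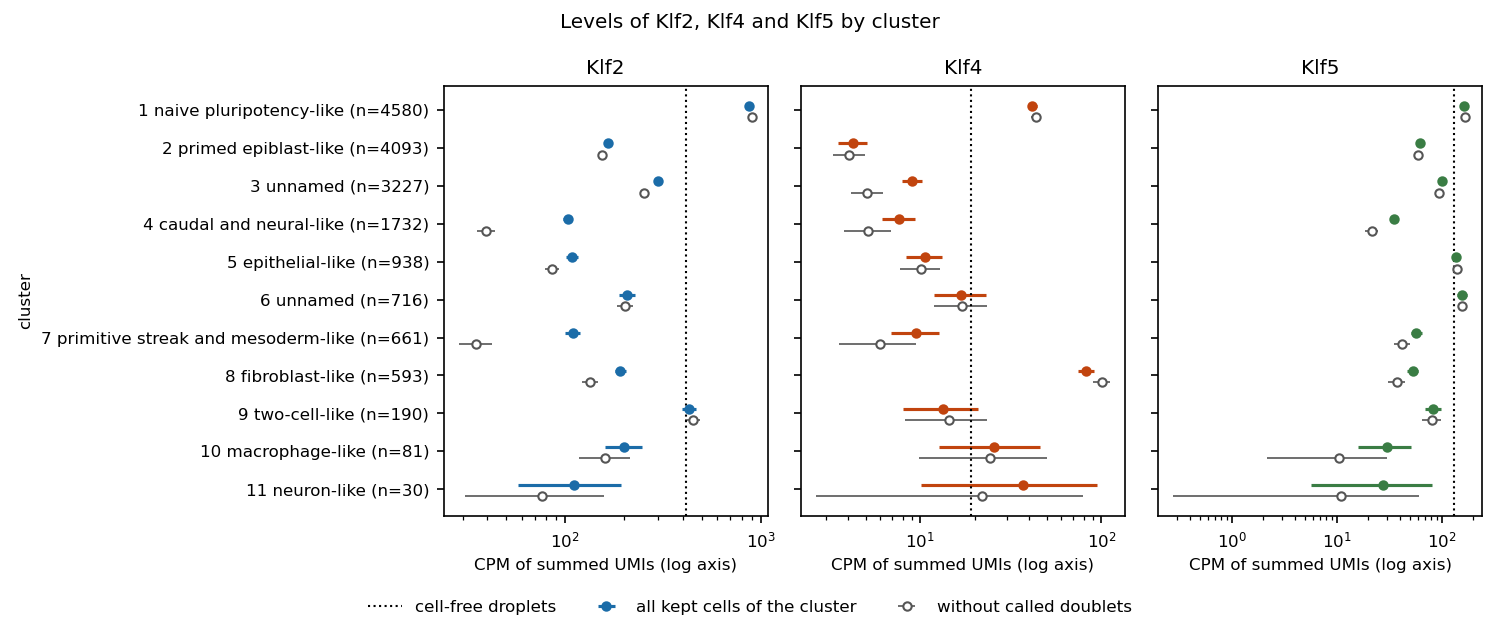
Levels of Klf2, Klf4 and Klf5 in each cluster (CPM of summed UMIs, log axis; bars are exact Poisson 95% intervals for counting error). Filled points are all kept cells of a cluster, open points leave out called doublets, and the dotted line is the level in cell-free droplets. Klf2 peaks in the naive-like cluster at 869 CPM and Klf4 in the fibroblast-like cluster at 82.3 CPM. Klf5 stands at 163 CPM in the naive-like cluster and at 157 CPM in cluster 6, with overlapping intervals.

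Klf2, which sustains self-renewal of mouse embryonic stem cells, was highest in naive-like cells. Among the 9 large clusters, two-cell-like cells came second at 430 CPM (397 to 466). Cluster 3 followed at 299 CPM (293 to 306). Cluster 6, at 208 CPM, and fibroblast-like cells, at 192 CPM, did not differ beyond counting error, and primed epiblast-like cells had 166 CPM (162 to 171). At the low end, primitive streak and mesoderm-like cells (109.6 CPM), epithelial-like cells (109 CPM) and caudal and neural-like cells (103 CPM) overlapped neighbour to neighbour. Naive-like cells stood 5.22-fold higher than primed epiblast-like cells (5.06 to 5.39).

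The low Klf2 levels depended on doublet calls. Without called doublets Klf2 stood at 39.4 CPM in caudal and neural-like cells and at 35.0 CPM in primitive streak and mesoderm-like cells, both below the 86.2 CPM (79.2 to 93.6) of epithelial-like cells. Cell-free droplets, 72027 uncalled barcodes of 150 to 300 UMIs, held Klf2 at 416 CPM (406 to 426), more than any large cluster but the naive-like and two-cell-like ones. The interval of the two-cell-like cells covered that of the droplets. The part of free RNA and of doublets in the lower levels was not tested.

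Klf4, which is both a naive factor and a gene of growth-arrested fibroblasts, went against its place in a naive group. Its highest level lay in the fibroblast-like cells, at 82.3 CPM (74.4 to 90.7), and naive-like cells came second at 41.7 CPM. The ratio of naive-like over fibroblast-like cells was 0.506 (0.453 to 0.567). Fibroblast-like cells stood 4.69-fold higher than all other kept cells (4.2 to 5.22). Of the 3 genes Klf4 alone passed a 2-fold higher level there, which 17.3% of 7849 genes did. All 11 fibroblast markers were raised in that cluster, and without called doublets Klf4 stood at 100.3 CPM in it.

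Primed epiblast-like cells had the lowest Klf4 of the large clusters, at 4.24 CPM (3.50 to 5.08). Naive-like cells exceeded them 9.83-fold (8.13 to 11.99), the widest gap between these clusters among the 3 genes. From cluster 6 (16.7 CPM) down through two-cell-like (13.4 CPM), epithelial-like (10.6 CPM), primitive streak and mesoderm-like (9.47 CPM), cluster 3 (8.98 CPM) and caudal and neural-like cells (7.62 CPM), each interval overlapped the next. Cell-free droplets held 18.96 CPM (16.9 to 21.2). Without called doublets Klf4 stood at 5.10 CPM in cluster 3 and 5.99 CPM in primitive streak and mesoderm-like cells.

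Klf5, a factor of naive cells and of epithelia, was spread more evenly. Naive-like cells at 163 CPM and cluster 6 at 157 CPM (141 to 175) did not differ beyond counting error, with a ratio of 1.04 (0.931 to 1.16). Epithelial-like cells had 137 CPM (128 to 145), and their interval overlapped that of cluster 6. Cluster 3 had 101 CPM and two-cell-like cells 83.1 CPM. Primed epiblast-like (61.7 CPM), primitive streak and mesoderm-like (57.5 CPM) and fibroblast-like cells (53.1 CPM) formed a run of overlapping neighbours. Caudal and neural-like cells were lowest at 35.3 CPM (32.0 to 38.7), and at 21.6 CPM without called doublets.

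Klf5 was the only one of the 3 that stood higher in epithelial-like than in the other kept cells, by 1.37-fold (1.29 to 1.46), where Klf2 stood at 0.272 and Klf4 at 0.508 of the other cells' level. Cell-free droplets held Klf5 at 131 CPM, above 6 of the 9 large clusters.

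In the macrophage-like cells, Klf2 stood at 199 CPM, Klf4 at 25.5 CPM and Klf5 at 30.1 CPM. The neuron-like cells gave 111 CPM for Klf2, 36.9 CPM for Klf4 and 27.7 CPM for Klf5. These rest on 86, 11 and 13 UMIs in macrophage-like cells and on 12, 4 and 3 UMIs in neuron-like cells, and their intervals were wide (10.1 to 94.5 CPM for Klf4 in neuron-like cells).

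Set against all other kept cells, primed epiblast-like cells had Klf2 lower by a log2 ratio of -1.42 and Klf4 by -2.30. Both passed a 2-fold lower level, which 2.73% of 6877 genes did, whereas Klf5 at -0.87 did not. Caudal and neural-like cells had all 3 at least 2-fold lower, Klf2 at -2.0, Klf4 at -1.39 and Klf5 at -1.61, where 4.3% of 7141 genes passed. The naive-like cells lie among the other cells in both comparisons.

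Klf2 and Klf5 were found in more naive-like than primed epiblast-like cells, and Klf4 was found most often in fibroblast-like cells among the large clusters. In cells thinned to 2000 UMIs, Klf2 had a UMI in 78.0% of naive-like cells (76.7 to 79.2), against 23.1% of primed epiblast-like, 21.2% of fibroblast-like and 10.6% of caudal and neural-like cells. Before thinning, at a median of 6724.5 UMIs per naive-like cell, the share was 96.3%. Klf4 had a UMI in 6.14% of naive-like cells (5.46 to 6.88) and 12.8% of fibroblast-like cells (10.2 to 15.8), against 0.788% of primed epiblast-like cells. Klf5 had a UMI in 25.5% of naive-like cells (24.3 to 26.8) and 23.4% of epithelial-like cells, against 11.0% of primed epiblast-like and 4.55% of caudal and neural-like cells. Cell-free droplets, at a median of 215 UMIs, had a UMI of Klf2 in 8.63%, of Klf4 in 0.408% and of Klf5 in 2.79%. Thinning left out 294 kept cells, 157 of them in cluster 6 and 38 naive-like. The share for Klf5 was 7.35% in fibroblast-like cells, whose median depth was 6895 UMIs.

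Klf2 counts were spread within clusters. Of the thinned naive-like cells, 22.0% had 0 and 13.8% had 4 or more Klf2 UMIs, with a highest count of 13, and the variance was 1.39 times the mean. In two-cell-like cells, 62.0% had 0 and the highest count was 12, with a variance 3.11 times the mean. Klf4 and Klf5 had variances of 1.17 times the mean in naive-like cells.

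Naive-like cells seldom showed all 3 genes at this depth. Of 4542 thinned naive-like cells, 1.48% had a UMI of all 3 (1.14 to 1.87), 22.0% of 2, 61.3% of 1 and 15.3% of none. Klf2 alone made up 54.9% of these cells, Klf5 alone 5.48% and Klf4 alone 0.925%. In primed epiblast-like cells 68.3% had none of the 3, and in caudal and neural-like cells 85.2%. In epithelial-like cells Klf5 alone was the most frequent state with a UMI, at 21.1%, and in fibroblast-like cells Klf4 alone reached 9.40%.

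**Figure D2:**
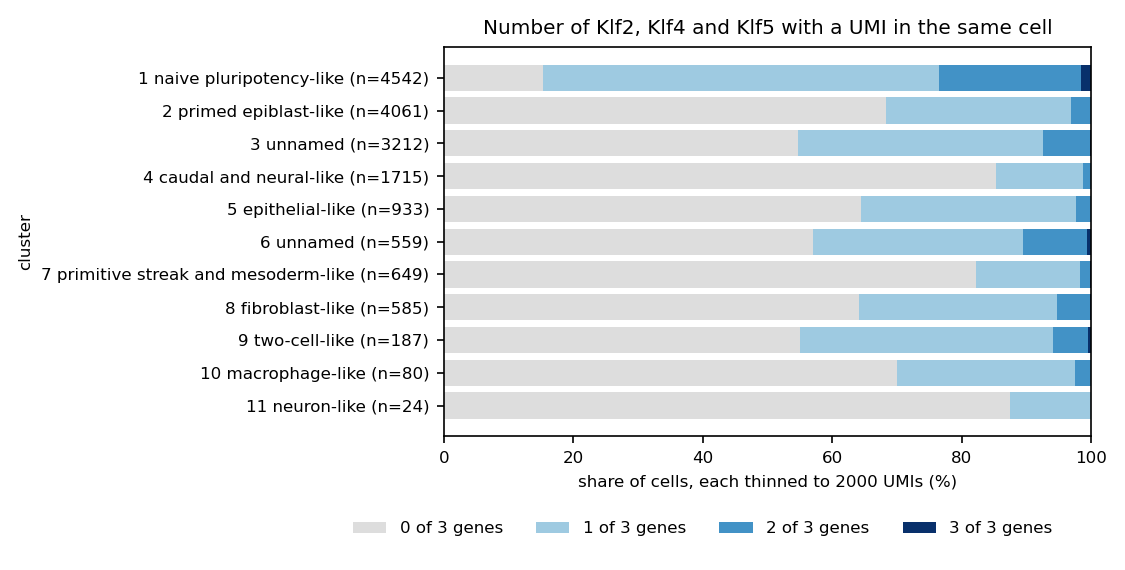
Share of cells of each cluster (%, cells thinned to 2000 UMIs) with a UMI of 0, 1, 2 or 3 of Klf2, Klf4 and Klf5. Naive-like cells have the shortest bar without a UMI, at 15.3%, and the bar of caudal and neural-like cells reaches 85.2%.

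Within the naive-like cluster, having a UMI of one gene told little about the next. Klf4 was found in 6.24% of cells with Klf2 and 5.79% of cells without it. Klf5 was found in 25.2% of cells with Klf2 and 26.5% of cells without it, and in 29.7% of cells with Klf4 and 25.2% of cells without it. The intervals overlapped in each of these pairs. In cluster 3, by contrast, Klf5 was found in 20.2% of cells with Klf2 (17.9 to 22.7) and 14.9% of cells without it (13.4 to 16.5), with 22.4% of its cells called doublets. In epithelial-like cells Klf5 was found in 16.2% of cells with Klf2 (10.1 to 24.2), against 24.4% of cells without it (21.5 to 27.5), with intervals that overlap.

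Naive-like cells with a UMI of a member had more UMIs of the naive list, most of which came from Dppa5a. Cells with Klf2 had a mean of 15.5 (15.3 to 15.6) and cells without it 14.4 (14.1 to 14.6). Cells with Klf4 had 16.7 (16.3 to 17.2) and cells without it 15.1 (15.01 to 15.2). Cells with Klf5 had 15.7 (15.5 to 15.96) and cells without it 15.1 (14.9 to 15.2). Cells with Klf5 had fewer germ marker UMIs, 1.20 (1.14 to 1.26) against 1.62 (1.57 to 1.66) without it, and so did cells with Klf4, 1.30 (1.17 to 1.44) against 1.52 (1.49 to 1.56). For Klf2 the direction was the other way, at 1.54 with it and 1.41 without it. Cells with Klf2 also had fewer primed marker UMIs, 1.41 (1.37 to 1.45), against 1.71 (1.63 to 1.79) without it. The intervals of these means cover counting error of the pooled UMIs and leave out the spread between cells.

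Among fibroblast-like cells, the 124 with Klf2 had 3.52 naive marker UMIs, against 1.31 in the 461 without it, and fewer fibroblast marker UMIs, 15.6 against 18.6. Cells with Klf4 went the other way. The 75 with Klf4 had 1.35 naive marker UMIs (1.10 to 1.64) and 20.01 fibroblast marker UMIs (19.01 to 21.1), against 1.84 and 17.6 in the 510 without it. They also had fewer UMIs of S phase genes, 2.64 (2.29 to 3.03) against 3.89 (3.72 to 4.07), and of G2/M phase genes, 6.03 (5.48 to 6.61) against 7.45 (7.21 to 7.69). Here too the intervals leave out the spread between cells. The part of the doublets in these differences was not tested.

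All 3 genes stood highest in the cells with the most naive marker UMIs, but the 3 courses differed. Cells were binned by their UMIs of the 15 other naive markers after thinning, and 95.2% of the cells with 20 or more such UMIs were naive-like. Most UMIs of this list came from 1 gene, Dppa5a. It held 5045 of 7468 summed CPM in naive-like cells and 2241 of 2666 CPM in primed epiblast-like cells. The bins, here and inside clusters, thus largely follow Dppa5a. Klf2 stood at 49.0 CPM in cells with no naive marker UMI, 177 CPM at 3 to 4, 354 CPM at 5 to 9, 680 CPM at 10 to 14 and 988 CPM (947 to 1031) at 20 or more. Klf5 stood over the same bins at 40.5, 84.2, 102, 139 and 184 CPM (166 to 202 in the last). Klf4 stood at 17.3 CPM (13.4 to 21.9) with no naive marker UMI and at 7.14 CPM (4.95 to 9.98) at 3 to 4, then at 27.2 CPM at 10 to 14 and 45.2 CPM (36.7 to 55.0) at 20 or more. Of the cells with no naive marker UMI, 265 were fibroblast-like, and those had Klf4 at 98.1 CPM.

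**Figure D3:**
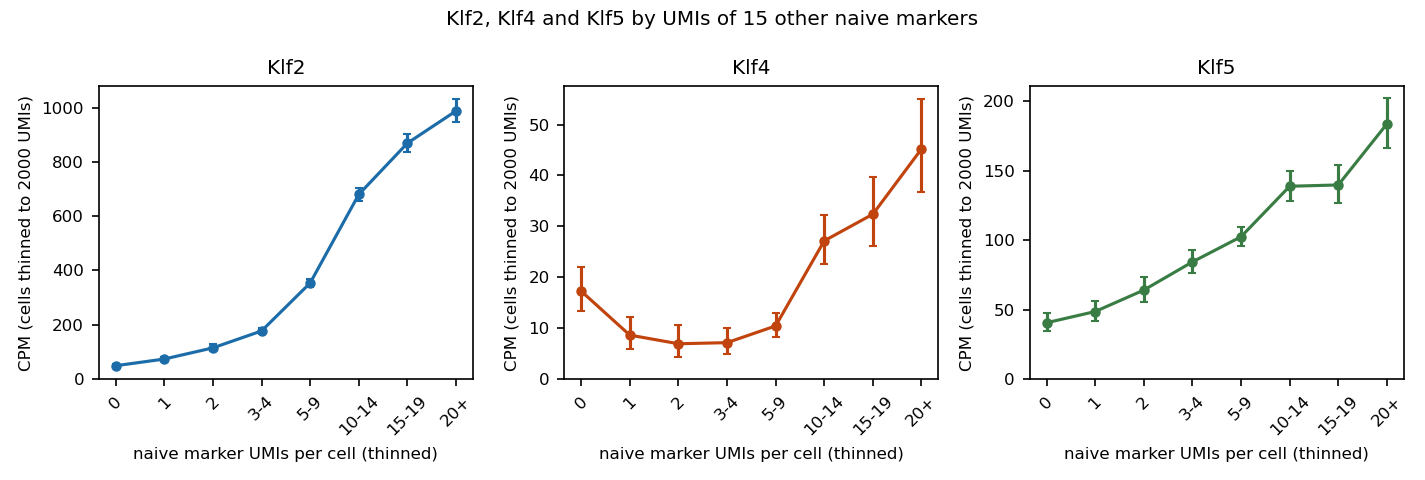
Levels of Klf2, Klf4 and Klf5 (CPM, all kept cells thinned to 2000 UMIs; bars are exact Poisson 95% intervals) by the number of UMIs of 15 naive markers without Klf genes in the same cell. Klf2 climbs at each step up to 988 CPM, Klf5 up to 184 CPM, and Klf4 is lowest in the middle bins and reaches 45.2 CPM in the last. Most of the marker UMIs in naive-like and primed epiblast-like cells come from Dppa5a.

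Klf2 also stood higher at higher naive marker counts inside clusters. Within naive-like cells Klf2 stood at 741 CPM at 5 to 9 naive marker UMIs, 881 CPM at 10 to 14, 934 CPM at 15 to 19 and 1004 CPM at 20 or more. Klf4 over these bins stood at 22.0, 33.3, 34.5 and 45.6 CPM, and Klf5 at 154, 157, 143 and 187 CPM. Within primed epiblast-like cells Klf2 stood at 52.3 CPM (31.0 to 82.7) with no naive marker UMI and at 224 CPM (209.9 to 239) with 5 or more, whereas Klf4 stood at 2.91 and 4.09 CPM in these bins with overlapping intervals. Within caudal and neural-like cells, of which 15.3% were called doublets, Klf2 stood at 26.3 CPM in the 779 cells with no naive marker UMI and within 237 to 374 CPM in the 130 cells with 5 or more. The part of doublets and free RNA in this was not tested.

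Genes whose pattern over the 9 large clusters was most like each member were ranked by Pearson's r of log2(CPM + 1) among 5771 genes with at least 50 CPM somewhere. The 9 clusters come from 1 matrix and differ in depth, with medians between 2735 UMIs (cluster 6) and 7297 UMIs (cluster 3). These r values are therefore descriptions. For Klf2 they were Mylpf (0.946), a myosin light chain, Tdh (0.946), threonine dehydrogenase of mouse embryonic stem cells, Hormad1 (0.917), a meiotic chromosome axis gene, Ooep (0.915), an oocyte gene, and Hsf2bp (0.896), a meiotic recombination gene. All 5 were highest in naive-like cells among the 9. Tdh is also one of the naive markers. For Klf4 they were S100a13 (0.931), Spp1 (0.919), the secreted protein osteopontin, Nupr1 (0.900), a stress response gene, Ctsa (0.897), a lysosomal protease, and Xpnpep1 (0.896), a peptidase, all highest in fibroblast-like cells among the 9. For Klf5 they were Triml2 (0.934), Triml1 (0.918), Ltbp4 (0.909), a TGF-beta binding protein, Cs (0.888), citrate synthase, and Nexmif (0.885). Among the 9 clusters Ltbp4 was highest in naive-like cells, and Triml2, Triml1, Cs and Nexmif were highest in cluster 6. Between the 3 genes themselves r was 0.45 for Klf2 with Klf4, 0.54 for Klf2 with Klf5 and 0.21 for Klf4 with Klf5.

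The rest of the Klf family differed in where it stood highest. Of 17 Klf genes in the matrix, 11 reached 20 CPM in a large cluster. The 3 described here were the 3 at least 2-fold higher in naive-like cells, as 2.48% of 7027 genes were. They had been chosen as naive factors with earlier results of these data known. Klf7, a factor best known from neurons, was the 1 that was at least 2-fold lower, at 26.5 CPM in naive-like and 75.2 CPM in the other cells, a log2 ratio of -1.47. At least 2-fold lower levels were found for 6.2% of the 7027 genes. The median log2 ratio of the family was 0.36. Klf12, a repressor, stood at 320 CPM in naive-like cells and 175 CPM in the other cells, a log2 ratio of 0.87 that is not far under that of Klf5. Klf8 (36.2 against 23.7 CPM), Klf9 (249.7 against 171 CPM) and Klf3 (68.0 against 46.4 CPM) were also higher in naive-like cells, short of 2-fold. Among the 9 large clusters Klf12 was highest in cluster 6, at 983 CPM, as were Klf8 (93.9 CPM), Klf3 (89.9 CPM) and Klf13 (115 CPM). Klf6 was highest in epithelial-like cells at 315 CPM, against 68.8 CPM in naive-like cells, as was Klf7 among the large clusters, at 149 CPM, while the 30 neuron-like cells had Klf7 at 258 CPM. Klf9 was highest in two-cell-like cells, at 365 CPM, and Klf10 ranged only between 22.1 and 36.4 CPM. The 1407 cells left out for over 10% mitochondrial UMIs had Klf12 at 868 CPM.

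**Figure D4:**
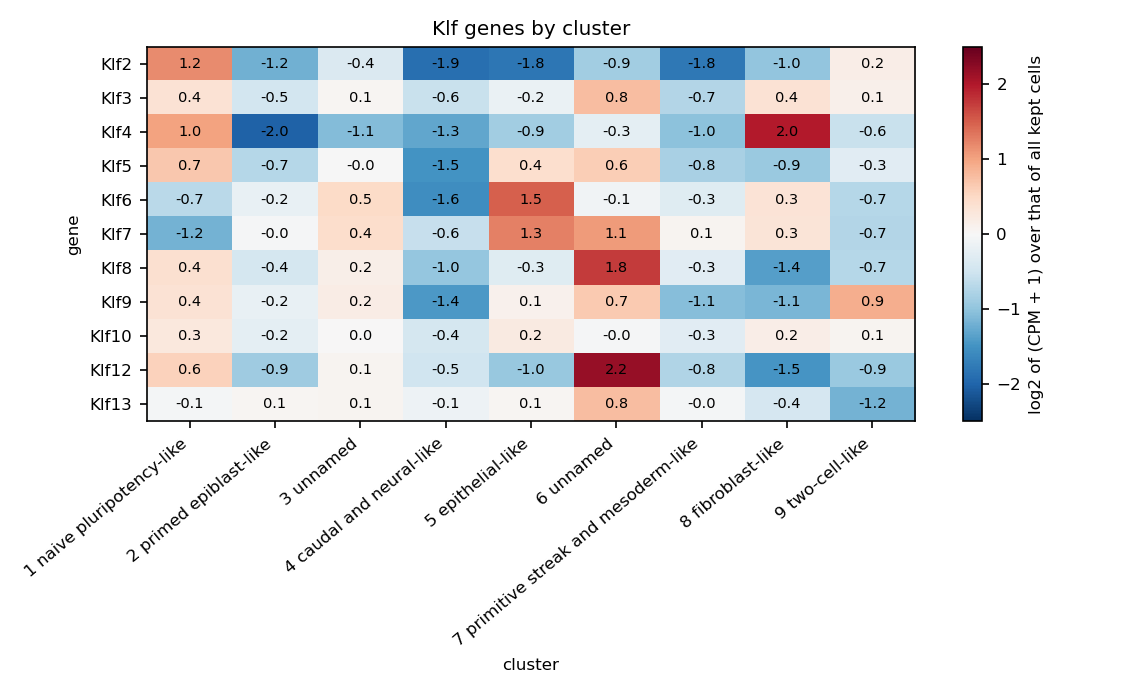
Level of 11 Klf genes in the 9 large clusters as the log2 of (CPM + 1) over that of all kept cells; red is higher and blue lower, and each cell prints its value. The naive-like column holds raised Klf2, Klf4 and Klf5 beside lowered Klf7, and the highest Klf12 and Klf8 stand in cluster 6.

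Lists of genes that act on these factors or with them were counted by the same 2-fold rule, beside the same 2.48% of genes higher and 6.2% lower. Those shares are over genes that reached 20 CPM on either side, which not every member of a list did. Of 12 genes of LIF and STAT3 signalling 6 reached 20 CPM. Of these, 1 was at least 2-fold higher in naive-like cells, the kinase gene Pim3, at 85.9 CPM in naive-like and 35.0 CPM in the other cells, and 0 were at least 2-fold lower. Under 20 CPM on both sides, Osmr stood at a log2 ratio of -2.53 and Jak2 at -1.30. Lifr, the LIF receptor, was likewise under 20 CPM but went the other way, at 1.01 (15.9 CPM in naive-like and 7.40 CPM in the other cells). Osmr, the oncostatin M receptor, Jak2, Socs3 and Stat3 were, among the large clusters, all highest in the fibroblast-like cells. These 4 were named for the largest ratios of highest to lowest cluster. Il6st, Jak1 and Ptpn11 were also highest there, Lifr in cluster 6, Pim1 in epithelial-like and Pim3 in naive-like cells. Of 7849 genes, 17.3% stood at least 2-fold higher in fibroblast-like than in the other kept cells. Stat3 stood at 118 CPM in fibroblast-like cells and 20.96 CPM in naive-like cells. Socs3, the feedback inhibitor of STAT3, stood at 27.7 and 6.14 CPM in the same order. The median log2 ratio of the list was -0.09.

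Of 14 FGF and ERK feedback genes 10 reached 20 CPM. Fgf4 was higher in naive-like cells, at 58.5 CPM, against 25.2 CPM in the other cells. Fgf5, a ligand gene of primed epiblast, was lower, at 7.57 CPM against 39.0 CPM, as was Fgf8, at 4.47 CPM against 93.1 CPM, and Dusp6, an ERK phosphatase gene, at 21.4 CPM against 45.2 CPM. Fgf5, which is on the marker list that named the primed epiblast-like cells, stood at 54.2 CPM in them. It stood at 51.4 CPM in caudal and neural-like cells, and Klf4 at 4.24 and 7.62 CPM in the same order. Egr1 and Spred1 were highest in fibroblast-like cells, at 133 and 176 CPM. In the ERK5 module, a kinase pathway upstream of Klf2 in endothelium, 0 of 7 genes, 6 of them at 20 CPM, passed in either direction. Among the large clusters Map2k5 and Map3k2 were highest in cluster 6 and Mef2a and Mef2c in fibroblast-like cells, and macrophage-like cells had Mef2c at 123 CPM.

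Of 16 core and naive network partners, 14 of them at 20 CPM, 11 were at least 2-fold higher in naive-like cells and 0 lower, with a median log2 ratio of 1.91. All of the 11 but Sox2 and Nanog are also among the naive markers that named the cluster, so the count is not independent of that name. Esrrb, a nuclear receptor, stood at 105 CPM in naive-like cells and at 6.54 CPM in primed epiblast-like cells. Dppa3 stood at 217 CPM in naive-like and 355 CPM in two-cell-like cells, Fbxo15 at 145 and 588 CPM in the same order. Tbx3 peaked outside the naive-like cells, at 113 CPM in primitive streak and mesoderm-like cells, against 31.6 CPM in naive-like cells. Sox2 and Nanog, the core pluripotency factors outside the marker lists, stood higher in naive-like cells, Sox2 at 344 CPM against 132 CPM in the other cells and Nanog at 141 CPM against 40.5 CPM, while Pou5f1 stood at 640 CPM against 514 CPM.

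Of 10 trophoblast and epithelial partners of KLF5, 7 of them at 20 CPM, 0 were higher in naive-like cells and 4 were lower, Eomes, Krt8, Krt18 and Cldn7. All 4 are also on the marker lists that named other clusters, Eomes for primitive streak and mesoderm and the rest for epithelial cells. The count and the keratin levels below are thus not independent of those names. The keratin genes Krt8 and Krt18 stood at 444 and 240.4 CPM in epithelial-like cells, where Klf5 stood at 137 CPM, and at 7.01 and 4.98 CPM in naive-like cells, where Klf5 stood at 163 CPM.

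Of 8 endothelial targets of KLF2 and KLF4, 2 of them at 20 CPM, Pecam1, an adhesion molecule that is also a naive marker, was the 1 that was higher in naive-like cells, at 33.8 CPM against 10.7 CPM in the other cells. Thbd, thrombomodulin, stood at 0.119 CPM in naive-like cells and 41.9 CPM in fibroblast-like cells, and Kdr was highest in primitive streak and mesoderm-like cells at 77.0 CPM. Of 17 immediate early genes, 7 of them at 20 CPM, 0 were higher and 1, Btg2, was lower in naive-like cells. Their summed level was 723 CPM in naive-like cells, 1353 CPM in fibroblast-like cells and 1406 CPM in epithelial-like cells. Ier3 and Fosl1 were highest in fibroblast-like cells, at 131 and 34.5 CPM. Of 6 cell cycle genes, 4 of them at 20 CPM, 0 were higher and Cdkn1a, the p21 gene and a target of KLF4, was lower, at 82.2 CPM in naive-like and 198 CPM in the other cells. Cdkn1a, Cdkn2a, Cdkn1c and Ccnd1 were highest in fibroblast-like cells among the large clusters, at 878, 340.2, 29.3 and 643 CPM.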

How the data were processed

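Single-cell RNA sequencing was described for embryoid bodies on day 2 and epiblast stem cells of 1 line, 1 sample each. The labels describe separate channels, whereas the deposited counts form 1 matrix with 1 barcode suffix, so cells were treated as 1 sample and no test was made. Counts are UMI counts per gene and barcode deposited by the authors. Per the file headers they come from Cell Ranger 8.0.1, over 2578653 barcodes and 33696 genes. The genome build and annotation are not given in the sources used here, and the submitters' processing notes name Seurat. The deposited tag table holds assignment probabilities as a fraction and the log10 of tag counts plus 1, per the file headers. It gave 59 called cells to tag CMO311 and 64 to CMO312 and left 21465 unassigned, and neither tag name occurs in the labels.

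Called cells were kept from 1000 genes upward and up to a mitochondrial share of 10% (Python 3.11.15, scanpy 1.11.5, leidenalg 0.10.2, numpy 2.4.6, scipy 1.17.1, matplotlib 3.10.9). Cells were scaled to 10000 UMIs and clustered on 2000 variable genes without Klf and cell-phase genes, with 30 components, 15 neighbours and a Leiden resolution of 0.5. A cluster was named where 3 or more markers of a list stood 2-fold or more above the other cells and reached 20 CPM, with 1 or more of them among its top 10 genes by fold and more than of the next list, a rule set after the data were seen. Doublets called by Scrublet (expected rate 0.1) and free RNA were left in, except in alternatives. Levels (CPM) are summed UMIs scaled to a common total and were not set per length. Levels and shares of different genes are printed side by side, and list sums add over genes. No difference between genes was tested. Shares used cells thinned to 2000 UMIs, which left out 294 cells. The scripts were tested on simulated data.

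Named were the 3 members, other Klf genes with at least 20 CPM in a cluster of at least 100 cells, the 5 genes of highest Pearson r per member and up to 4 genes per list by the ratio of highest to lowest cluster. Genes named beside small counts, the subgroup genes and Sox2, Nanog and Pou5f1 were picked with their values in view. The members and lists were chosen with earlier results of these data known.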

Additional observations from a re-analysis of the deposited data

Results flagged for a closer look

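The 3 genes were also found in droplets and cells that the comparisons left out. Cell-free droplets held Klf2 at 416 CPM, Klf4 at 18.96 CPM and Klf5 at 131 CPM. The 1407 called cells with at least 1000 genes but over 10% mitochondrial UMIs held Klf2 at 259.9 CPM, Klf4 at 27.4 CPM and Klf5 at 167 CPM. The 444 called cells under 1000 genes with at most 10% mitochondrial UMIs held Klf2 at 219.7 CPM, Klf4 at 25.4 CPM and Klf5 at 129.5 CPM. Each value lay above the limit that a count of 0 allows.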

How the results depend on the processing

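All 3 log2 ratios of naive-like over other cells kept their direction under the alternatives run. With a filter of 500 genes and 20% mitochondrial UMIs the ratio moved beyond counting error for Klf2 (2.02), and with 2000 genes and 5% for Klf2 (2.07) and Klf5 (1.22). With Klf genes in the clustering Klf5 stood at 1.15, and with mitochondrial and ribosomal protein genes out of the total Klf2 stood at 2.164. Without called doublets the ratios were 2.48 (Klf2), 1.97 (Klf4) and 1.17 (Klf5). With 5% free RNA subtracted Klf2 stood at 2.26 and Klf5 at 1.11. With naive-like cells taken as those with at least 3 naive marker UMIs they were 2.67 (Klf2), 0.75 (Klf4) and 1.14 (Klf5). With fibroblast-like, macrophage-like and neuron-like cells out of the other cells, an alternative chosen after seeing the data, Klf4 stood at 2.30. The count of genes at least 2-fold higher in naive-like cells was 50 at 3-fold and 104 at 50 CPM, against 174, fewer by the construction of those limits. At 4000 UMIs per cell the shares of naive-like cells with a UMI were 92.8% (Klf2), 12.7% (Klf4) and 42.9% (Klf5). Of 147 levels per cluster under 5 settings, 83 lay within the counting interval of the reported level and 64 outside it, and the cluster with the highest level of each gene was the same in all 5 among the clusters that could be matched. Under the 2000-gene filter 6 of the 9 large clusters were matched, and clusters 3, 5 and 6 gave no value there. Of the 64, 24 came with mitochondrial and ribosomal protein genes out of the total, which raises the CPM of the 3 genes by construction. The cause of the other shifts was not tested. Depth limits Klf4 most, with 2442 UMIs in all kept cells. No paired analysis was possible because the counts form 1 matrix with no map of cells to samples, and no result comes from a test.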
